A study of Mus musculus with 9 samples.

Results

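Cholesterol and fatty acid synthesis genes were followed in CD4 single positive (SP4) thymocytes sorted by the level of a reporter of T cell receptor signaling. The 33 genes, among 41978 in the expression table, were chosen by name. They are the regulators of the pathway (5 genes), the mevalonate steps (7), the sterol steps (11), fatty acid synthesis and desaturation (8) and cholesterol efflux (2). The cells were semi-mature SP4 thymocytes from thymus of Nur77-eGFP BAC Tg mice, whose transgene makes GFP when the Nur77 gene (Nr4a1) is transcribed. All 9 samples carried this genotype and no sample was treated. Live thymocytes that were CD4+, CD8-, CD25-, CD69+ and CD24+ were sorted into 3 gates, each holding 10% of the cells by GFP: the dimmest (GFPlo), the middle (GFPmed) and the brightest (GFPhi). Each group has 3 samples of 10000 cells. The sources give CD24 as hi in the methods and as lo in the main text, and the age and sex of the mice behind each sample are not given in the sources used here, where the methods name both sexes and 3 to 10 weeks for all experiments but the chimeras. The samples are called biological replicates without naming the mice, so the p-values measure the spread between these samples.

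Cells make cholesterol from acetyl-CoA through mevalonate, isoprenoids and squalene, and make fatty acids from the same precursor through malonyl-CoA. Both branches are induced by SREBP transcription factors, which the chaperone Scap carries from the endoplasmic reticulum for cleavage when sterols are low and which Insig proteins retain when sterols are high. Excess sterol activates the nuclear receptors LXR, which induce the efflux transporters Abca1 and Abcg1 and Srebf1. Dividing and activated T cells raise lipid synthesis to build membranes, and cholesterol in the plasma membrane affects T cell receptor signaling.

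Nr4a1 RNA followed the sort. It had 187 to 251 TPM (transcript level scaled to the library) in GFPlo, 351 to 406 in GFPmed and 767 to 917 in GFPhi samples. Reads on genes ran from 7465552 to 14943774 per sample, and samples correlated at 0.857 to 0.909 within groups and at 0.834 to 0.907 between groups. The SP4 markers were present, with mean Cd4 between 474 and 582 TPM and mean Cd3e between 1085 and 1229 TPM over the groups, while mean Cd8a was between 7.15 and 16.7 TPM. Other programs moved with GFP in the test described below. Of the 8 SP4 markers, 1 passed and was lower, Cd69, a marker of the sort gate, which fell to 57.6% of the GFPlo mean in GFPhi (log2 fold change -0.79, limma adjusted p = 0.0142, and 0.0318 against GFPmed). Cd4 in GFPhi was at 81.4% of the GFPlo mean (limma adjusted p = 0.0532), and every GFPhi sample lay below every GFPlo sample. Proliferation genes were called higher in GFPhi than GFPlo for 6 of 6, with a summed level of 54.5 to 72.5 TPM in GFPlo, 114 to 166 in GFPmed and 230.5 to 316 in GFPhi. Regulatory T cell markers (Foxp3 and Il2ra) were called higher for 2 of 2, from 7.18 to 7.78 TPM summed in GFPlo, through 7.18 to 9.02 in GFPmed, to 22.1 to 29.7 in GFPhi. CD8 markers were lower at the adjusted p for 2 of 2, from 32.9 to 37.8 TPM summed in GFPlo, through 30.4 to 34.7 in GFPmed, to 15.8 to 19.0 in GFPhi. Double positive markers were lower for 1 of 2 tested (Dntt), with 18.8 to 20.95 TPM summed in GFPlo, 14.7 to 16.1 in GFPmed and 8.14 to 13.5 in GFPhi. Of epithelial markers, 1 of 3 tested was higher (Epcam), and the list summed to 3.25 to 7.15 TPM in GFPlo, 5.28 to 8.39 in GFPmed and 9.41 to 12.1 in GFPhi. Epcam made up most of this rise, with means of 2.79 TPM in GFPlo and 8.78 in GFPhi. Krt8 went from 0.723 to 1.03 TPM and Psmb11 from 1.55 to 1.31 TPM, and neither passed. None of the B cell (4 tested), myeloid and dendritic (4 of 7), stromal (2 of 3) or erythroid (1 of 2) markers passed the test between GFPhi and GFPlo by limma, where 1 of them, the erythroid Hbb-bs, had an unadjusted p under 0.05. No listed marker found in the table was at 0 in every sample. The part of these programs in the results on lipid genes was not tested, and in bulk RNA fewer cells of a type and less RNA per cell cannot be told apart.

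The lipid genes differed widely in level. Marker levels, sums by list and values by sample are on the TPM of the table unless exonic length is named. Those TPM were divided by a transcript length that includes introns. The lipid genes were therefore ranked by level only after reads were divided by exonic length. On that scale Scd2, a stearoyl-CoA desaturase that makes monounsaturated fatty acids, was the highest of the 33 genes, with a mean of 489 TPM over 9 samples and a range from 397 to 573. Acly, which makes cytosolic acetyl-CoA from citrate, was next at 254 TPM (214 to 287), and Scd2 lay 1.93-fold above it with no overlap of samples. Fasn, the fatty acid synthase, followed at 85.2 TPM (64.6 to 99.9), and it overlapped Srebf1 at 76.4 TPM (67.3 to 98.6). Srebf1 in turn overlapped Srebf2, at 65.7 TPM (59.96 to 75.3), and Scap followed at 63.0 TPM (53.3 to 70.6). The first 3 places were held by fatty acid genes and the next 3 by regulators.

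The cholesterol synthesis steps were lower. Their highest were Ebp at 52.2 TPM and Dhcr7 at 49.9 TPM on exonic length, and their lowest was Fdps, the farnesyl diphosphate synthase, at 3.37 TPM (2.83 to 3.85). Paralogs in the same region differed widely. Scd1 lies 87.6 kb from Scd2 on chromosome 19 and had 0.591 TPM (0 to 1.341), the lowest of all 33 genes. Fads1 and Fads2, the delta-5 and delta-6 fatty acid desaturases, lie 81.1 kb apart on the same chromosome and had 18.8 TPM (13.0 to 23.6) and 6.22 TPM (3.25 to 11.7), with no overlap. Reads were sparse for some members, since 5 of them (Insig1, Idi1, Fdps, Scd1 and Fads2) had fewer than 100 reads in every sample.

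**Figure D1:**
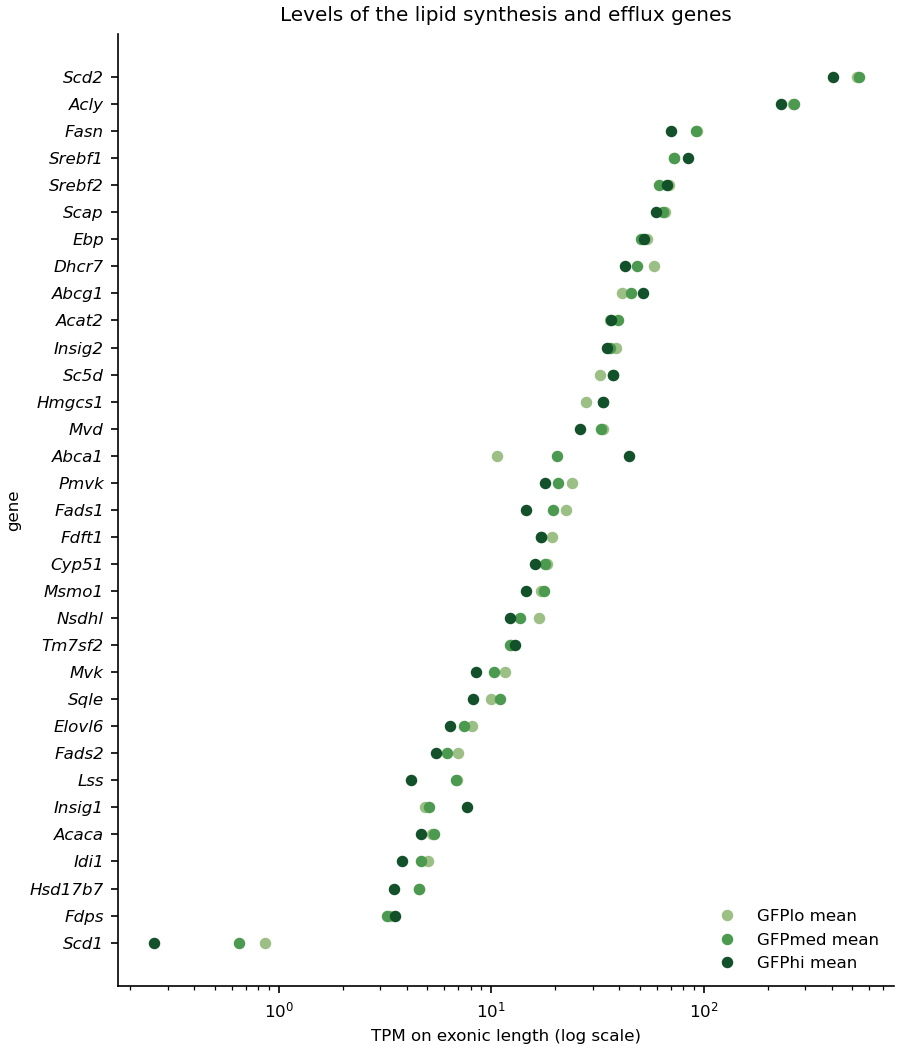
Mean level of each lipid gene in GFPlo, GFPmed and GFPhi samples (n = 3 each), as TPM on exonic length on a log axis, with genes ordered by their mean over all 9 samples. Scd2 stands highest at 489 TPM and Scd1 lowest at 0.591 TPM. The 3 group means of Abca1 lie far apart, at 10.6, 20.3 and 44.7 TPM. Those of Scd1 also spread on the log axis, at 0.866, 0.648 and 0.258 TPM, from few reads.

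Promoter letters are shown for 3 members whose values are described below: Hmgcs1, a classic SREBP target and the one member whose window held the sterol element searched, Fasn, which fell, and Abca1, which rose. Fasn and Abca1 were chosen for this after their values were seen. The windows are the 250 bases before the RefSeq start in GRCm38.p6, written 5′ to 3′ on the strand of the gene: chr13:119690101-119690350 on the plus strand for Hmgcs1, chr11:120824548-120824797 on the minus strand for Fasn and chr4:53159896-53160145 on the minus strand for Abca1. Capitals mark matches to the sterol regulatory element TCACNCCAC (N is any base), the NF-Y box CCAAT and the Sp1 box GGGCGG on either strand, so that ATTGG and CCGCCC are the same boxes on the other strand.
Hmgcs1: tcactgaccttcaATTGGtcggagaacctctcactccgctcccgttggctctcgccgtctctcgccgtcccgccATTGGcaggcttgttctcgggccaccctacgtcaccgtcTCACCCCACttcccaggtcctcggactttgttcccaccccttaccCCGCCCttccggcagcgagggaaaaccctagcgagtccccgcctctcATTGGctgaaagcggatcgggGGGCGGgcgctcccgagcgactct
Fasn: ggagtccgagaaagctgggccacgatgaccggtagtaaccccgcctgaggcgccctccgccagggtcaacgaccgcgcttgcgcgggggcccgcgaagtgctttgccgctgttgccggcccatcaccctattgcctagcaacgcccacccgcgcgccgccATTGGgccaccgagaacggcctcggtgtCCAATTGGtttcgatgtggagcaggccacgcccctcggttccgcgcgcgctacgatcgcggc
Abca1: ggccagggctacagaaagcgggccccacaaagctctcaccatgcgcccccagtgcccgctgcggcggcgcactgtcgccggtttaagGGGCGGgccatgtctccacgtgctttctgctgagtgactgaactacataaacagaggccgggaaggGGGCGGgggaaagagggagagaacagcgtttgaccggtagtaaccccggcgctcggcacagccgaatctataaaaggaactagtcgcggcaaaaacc
Hmgcs1 held the sterol element at 137 bases before the start, with 3 CCAAT boxes and 2 Sp1 boxes in the stretch shown. Fasn held 3 CCAAT boxes, of which a pair overlap, and no Sp1 box. Of the motifs searched, Abca1 held only the Sp1 box, at 2 places. No element bound by LXR was among the motifs searched, so the letters left unmarked in these windows may hold one.

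Windows of 300 bases (the 250 shown and the first 50 of the transcript) were in the RefSeq table for 26 of the 33 members. CCAAT occurred in 19 of the 26 (73.1%) and in 37.4% of all 32851 windows. GGGCGG occurred in 20 of the 26 (76.9%) and in 35.7% of all windows. The sterol element occurred in 1 of the 26 (3.85%) and in 1.24% of all windows. The letters AAAGGTCA, the element that a Nr4a monomer binds, occurred in 0 of the 26 and in 1.51% of all windows. These are counts of letters in a short window and say nothing of binding.

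Between GFPlo and GFPhi no member of the cholesterol or fatty acid branch was called higher. Abca1, an efflux gene, rose 4.23-fold and was the 1 member of 32 tested that was called higher. The fatty acid genes Scd2, Fasn and Fads1 fell to 76.7%, 75.7% and 64.8% of their GFPlo means. None of the 18 cholesterol synthesis steps passed the test by limma. The test was limma on log2(TPM + 1) over all 9 samples, for genes that reached 1 TPM in 3 or more samples, with Benjamini-Hochberg adjustment over 30693 genes. On this scale the fold change of a low gene is understated. A gene was called at a log2 fold change of at least 1 in size and an adjusted p of at most 0.05. Elovl6, a fatty acid elongase listed between 0.59 and 1.08 TPM, was the 1 member left out by the filter.

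The member counts stand against the same counts over all genes tested. Of the 32 members, 1 was called higher in GFPhi than in GFPlo, beside 1.26% of all genes, and 0 were called lower, beside 0.404%. By the adjusted p alone, 1 member was higher, beside 2.38% of all genes, and 3 were lower, beside 1.51%. At an unadjusted p under 0.05, 2 members were higher and 4 lower (18.8% in all), beside 2036 and 2208 of all genes (13.8%). limma-voom on whole reads solved from the TPM also called 0 lower. The log2 fold change was positive for 9 members and negative for 23, with a median of -0.17, while 40.6% of all genes were positive and their median was -0.09. In 4 members (Hmgcs1, Sc5d, Abca1 and Abcg1) every GFPhi sample lay above every GFPlo sample, as in 8.26% of all genes, and in 9 of those tested every GFPhi sample lay below, as in 9.92% of all genes. The latter were Pmvk, Idi1, Cyp51, Nsdhl, Dhcr7, Fasn, Scd1, Scd2 and Fads1.

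**Figure D2:**
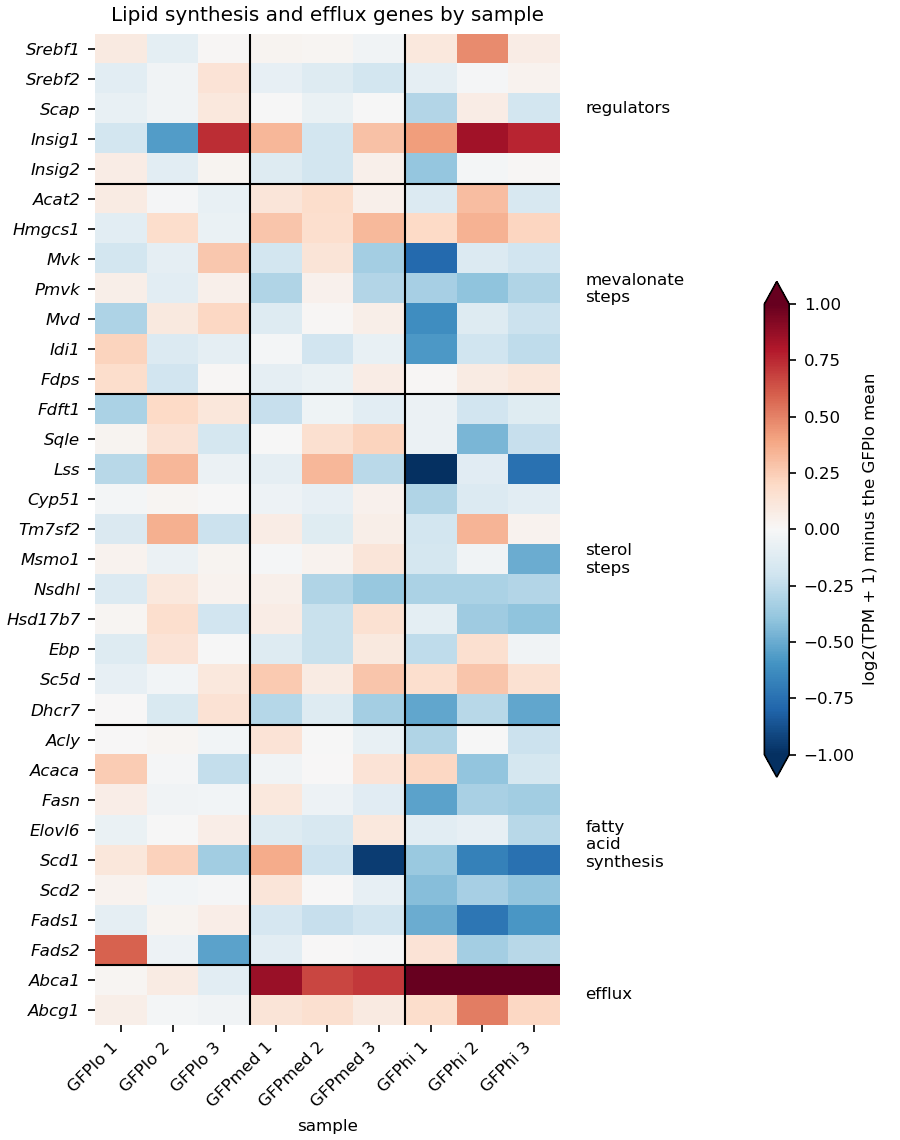
Each lipid gene (rows, by role) in each sample (columns), as log2(TPM + 1) minus the mean of the 3 GFPlo samples, with colors limited to differences of 1 in size. Abca1 is higher in every GFPmed and GFPhi sample, Scd2, Fasn and Fads1 are lower in every GFPhi sample (Scd2 by -0.38, Fasn by -0.40 and Fads1 by -0.60 on average), and the cholesterol steps are mixed, with Lss (-0.69) and Dhcr7 (-0.44) the lowest, of which neither passed the test.

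GFPmed samples were near GFPlo. No member was called higher or lower, beside 0.0554% and 0.00326% of all genes, and none passed the adjusted p alone, beside 0.0717% higher and 0.00326% lower. At an unadjusted p under 0.05, 1 member (Abca1) was higher and 0 were lower (3.12% in all), beside 839 and 593 of all genes (4.67%). limma-voom passed Abca1 as its 1 member. The median log2 fold change of members was -0.02. Against GFPmed, GFPhi had 1 member called higher (Abca1), beside 0.541% of all genes, and 0 called lower, beside 0.15%. By the adjusted p alone, 1 was higher, beside 0.899%, and 1 was lower (Scd2), beside 0.609%, and the median of members was -0.14. Comparisons with a group in common share its samples.

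Abca1, which exports cholesterol to apolipoprotein A-I, gave the largest difference of the set (chr4:53030787-53159895). Its TPM were 2.91, 3.07 and 2.58 in GFPlo, 6.0, 5.11 and 5.29 in GFPmed and 13.0, 10.4 and 12.8 in GFPhi samples. Its 3 groups had no overlap and rose with GFP. Means were 2.85 ± 0.25 (SD, n = 3), 5.47 ± 0.472 and 12.1 ± 1.41 TPM. The log2 fold change from GFPlo to GFPhi was 1.76 (standard error 0.17, limma adjusted p = 0.00145), and it was called in each of 20 alternative analyses, at 1.71 to 2.16 with an adjusted p of at most 0.0192. GFPmed differed from GFPlo by 0.75 on the log2 scale (adjusted p = 0.485) and GFPhi from GFPmed by 1.01 (adjusted p = 0.0319). The last call stood at the fold limit and held in 8 of 20 alternatives (adjusted p up to 0.152). Between 256 and 1839 reads per sample lay behind these values. Abca1 is abundant in macrophages. The summed myeloid and dendritic markers were 79.8 to 103 TPM in GFPlo, 82.7 to 98.6 in GFPmed and 92.3 to 97.3 in GFPhi samples, which overlap. Cst3 made up most of this sum, with a mean of 72.7 of 94.5 TPM in GFPlo, so the sum says little of macrophages. In GFPlo, GFPmed and GFPhi, C1qa averaged 4.74, 3.32 and 4.35 TPM, Lyz2 5.17, 5.59 and 5.76 TPM and Csf1r 10.2, 9.37 and 8.93 TPM. The other markers of this list were below the filter and moved in different directions. Itgax averaged 1.31, 0.423 and 0.590 TPM, C1qb 0.242, 0.315 and 0.305 TPM and Itgam 0.155, 0.103 and 0.342 TPM. The part of such cells in the Abca1 values was not tested.

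Abcg1, which exports cholesterol to HDL, had a smaller difference. Its TPM were 15.4, 14.5 and 14.3 in GFPlo, 16.2, 16.6 and 15.7 in GFPmed and 16.8, 21.5 and 17.2 in GFPhi samples. The groups again lay in order without overlap, as for Abca1, so that both efflux genes had this rising order, beside 1.67% of all genes. The log2 fold change from GFPlo to GFPhi was 0.30 (standard error 0.12, 95% interval 0.02 to 0.58) and did not pass the adjustment (adjusted p = 0.314), and GFPhi replicate 2 stood above the other samples. limma-voom on library totals passed it (adjusted p = 0.0313), the 1 of 20 alternatives in which it passed. Of the LXR genes, which act upstream of both, Nr1h2 had 181 TPM in GFPlo and 206 in GFPhi on average (adjusted p = 0.519) and Nr1h3 was under the filter.

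**Figure D3:**
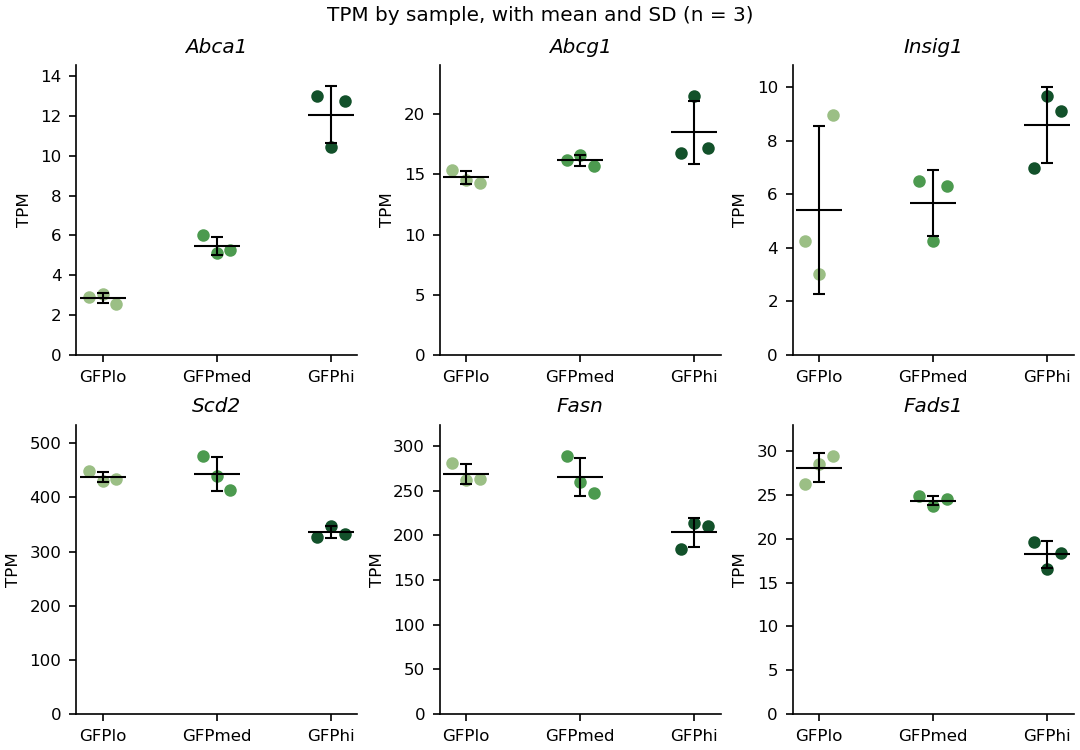
TPM of 6 lipid genes in each sample (points), with the mean and SD of the 3 samples of a group (bars), on axes that start at 0. Abca1 rises from 2.85 to 12.1 TPM on average with no overlap of groups, Scd2 and Fasn are lower only in GFPhi among these groups, Fads1 falls in order, and the Insig1 samples of GFPlo spread over those of the other groups.

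Fatty acid synthesis held the members lower at the adjusted p alone by limma, beside a like change of the sterol gene Dhcr7 (-0.44, limma adjusted p = 0.0906). All 7 tested members of this group had a negative log2 fold change from GFPlo to GFPhi (Acaca turned positive, at up to 0.03, under quantile normalization and without GFPlo replicate 1 or GFPhi replicate 2, and Fads2 without GFPlo replicate 1, at 0.13), with a median of -0.38, and 3 of them passed the adjusted p alone. Scd2 (chr19:44293674-44306864) had 449, 430.4 and 434 TPM in GFPlo, 477, 439 and 413 in GFPmed and 326, 347 and 333 in GFPhi samples. Every GFPhi sample lay below every sample of the other groups, which overlapped each other. Means were 438 ± 9.71, 443 ± 32.1 and 336 ± 10.9 TPM (SD, n = 3). The log2 fold change was -0.38 from GFPlo to GFPhi (standard error 0.06, limma adjusted p = 0.0147), -0.40 from GFPmed to GFPhi (adjusted p = 0.0241) and 0.02 from GFPlo to GFPmed.

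Fasn (chr11:120805846-120824547) showed the same order of samples. It had 281, 262 and 263 TPM in GFPlo, 289, 259 and 248 in GFPmed and 185, 214 and 211 in GFPhi samples. Its means were 269 ± 10.9, 266 ± 21.4 and 203 ± 15.97 TPM (SD, n = 3). The log2 fold change from GFPlo to GFPhi was -0.40 (standard error 0.08, limma adjusted p = 0.0383), and from GFPmed to GFPhi it was -0.38, which did not pass (adjusted p = 0.0776). For the question whether GFPmed lay midway between the other groups, 0 of the 32 members passed by limma, beside 0.0195% of all genes. However, 2 members (Scd2 and Fasn) had an unadjusted limma p under 0.05, at 0.00509 and 0.0342. They are 6.25% of members, beside 5.02% of all genes. limma-voom on the reads with library totals passed 1, Scd2.

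Fads1 (chr19:10182888-10196877), which makes arachidonic and eicosapentaenoic acid, fell in order of GFP. It had 26.2, 28.5 and 29.5 TPM in GFPlo, 24.8, 23.7 and 24.5 in GFPmed and 19.6, 16.6 and 18.4 in GFPhi samples. No groups overlapped, a falling order that 0.87% of all genes showed. Means were 28.1 ± 1.67, 24.3 ± 0.561 and 18.2 ± 1.54 TPM (SD, n = 3), and the log2 fold change from GFPlo to GFPhi was -0.60 (standard error 0.10, limma adjusted p = 0.0148). From GFPmed to GFPhi it was -0.40 (adjusted p = 0.115). These falls of Scd2, Fads1 and Fasn kept their sign in each of 20 alternatives but passed the adjusted p in 13, 13 and 6 of them, and none passed under median-of-ratios scaling (adjusted p = 0.598, 0.27 and 0.613) or without GFPlo replicate 2 or 3 or GFPhi replicate 3. Without GFPlo replicate 1, 1 of the 3 passed.

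The other fatty acid genes did not pass. Acly had 86.2 to 89.3 TPM in GFPlo and 71.3 to 87.5 in GFPhi samples, a log2 fold change of -0.17 (95% interval -0.39 to 0.04). Acaca, the carboxylase that makes malonyl-CoA, had 1.44 to 2.44 and 1.20 to 2.33 TPM, and its difference was -0.12 (95% interval -0.66 to 0.43). Fads2 differed by -0.16 (95% interval -0.87 to 0.55). Scd1 had 1.09, 1.27 and 0.52 TPM in GFPlo, 1.5, 0.67 and 0.00 in GFPmed and 0.49, 0.21 and 0.15 in GFPhi samples, from 29 reads at most, and its log2 fold change of -0.60 had an adjusted p of 0.542. Elovl6, below the filter, had 0.932 TPM in GFPlo and 0.737 in GFPhi on average.

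None of the 5 regulators passed the test by limma, and 0 had an unadjusted p under 0.05. Srebf1, whose protein drives fatty acid genes, had 132, 116 and 125 TPM in GFPlo, 127, 126 and 121 in GFPmed and 134, 173 and 131 in GFPhi samples, with a log2 fold change of 0.22 (95% interval -0.04 to 0.47, adjusted p = 0.466). Srebf2, whose protein drives the cholesterol genes, differed by -0.02 (95% interval -0.24 to 0.20). Scap had 41.4, 42.7 and 47.1 TPM in GFPlo, 43.4, 41.6 and 43.6 in GFPmed and 35.4, 46.1 and 38.3 in GFPhi samples, a difference of -0.13 (95% interval -0.38 to 0.12). Neither interval reaches a change of 1 on the log2 scale. Insig2, a retention protein of the SREBP and Scap complex, differed by -0.13 (95% interval -0.47 to 0.21). Its relative Insig1, itself an SREBP target, had the largest value of this group. It had 4.26, 3.04 and 8.97 TPM in GFPlo, 6.49, 4.26 and 6.30 in GFPmed and 6.97, 9.66 and 9.11 in GFPhi samples. GFPlo replicate 3 lay among the GFPhi samples, and the log2 fold change of 0.67 did not pass (95% interval -0.13 to 1.47, adjusted p = 0.474).

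No mevalonate step passed the test. Of 7 members, 3 had positive and 4 negative log2 fold changes from GFPlo to GFPhi, with a median of -0.32, and 0 had an unadjusted p under 0.05 by limma or an adjusted p under it by limma-voom. Hmgcs1, the HMG-CoA synthase (chr13:119690379-119708260), went up in value, with 14.6, 17.9 and 14.99 TPM in GFPlo, 19.4, 17.9 and 20.0 in GFPmed and 18.3, 20.3 and 18.4 in GFPhi samples. Its log2 fold change came to 0.26 (95% interval -0.01 to 0.52, adjusted p = 0.396), and 12.1% of its exonic bases overlap another gene, whose reads cannot be told apart without strand. Mvk, the mevalonate kinase, had the lowest value. It had 3.74, 4.05 and 5.5 TPM in GFPlo, 3.73, 4.89 and 3.24 in GFPmed and 2.13, 3.90 and 3.70 in GFPhi samples, a difference of -0.37 (adjusted p = 0.657) with overlapping groups. The next kinase Pmvk, the decarboxylase Mvd and the isomerase Idi1 differed by -0.35, -0.32 and -0.34. Acat2, the thiolase of the first step, differed by 0.01, and Fdps, with 26.7% of its exonic bases shared with another gene, by 0.07.

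Sterol steps, from squalene on, had 2 positive and 9 negative values, with a median of -0.23. None of the 11 passed by limma, and 1 (Dhcr7) had an unadjusted p under 0.05. Dhcr7, the reductase that makes cholesterol from 7-dehydrocholesterol (chr7:143823145-143848410), had 52.9, 47.5 and 58.4 TPM in GFPlo, 43.1, 48.2 and 41.5 in GFPmed and 36.5, 43.4 and 36.5 in GFPhi samples. Every GFPhi sample lay below every GFPlo sample, and the log2 fold change was -0.44 (95% interval -0.70 to -0.18, limma adjusted p = 0.0906). limma-voom on library totals passed it (adjusted p = 0.0127), the 1 of 20 alternatives to do so. Lss, which cyclizes squalene epoxide to lanosterol, had the lowest value of this group, -0.69 (standard error 0.31, adjusted p = 0.391). Its TPM were 10.2, 16 and 12 in GFPlo, 11.7, 16.04 and 10.2 in GFPmed and 4.83, 11.5 and 7.05 in GFPhi samples, which overlap. Sc5d, the lathosterol desaturase, had the highest value, 0.20 (adjusted p = 0.428), with 25.3, 26.4 and 29.0 TPM in GFPlo, 32.3, 28.6 and 32.7 in GFPmed and 30.2, 32.8 and 29.98 in GFPhi samples.

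The other sterol enzymes did not pass the test. Fdft1, the squalene synthase, differed by -0.12, and 18.3% of its exonic bases overlap Ctsb. Sqle, the squalene epoxidase and a rate-limiting step, differed by -0.25 (95% interval -0.65 to 0.15). Cyp51, the lanosterol demethylase, differed by -0.18, and Msmo1 and Nsdhl, which remove the C4 methyl groups, by -0.23 and -0.31. Hsd17b7, the ketoreductase of the same step, differed by -0.29 and the isomerase Ebp by -0.04. Tm7sf2, a sterol reductase that shares 12.1% of its exonic bases with Vps51, differed by 0.06. Across all 18 cholesterol steps, 0 were called in any of the 3 comparisons by limma or by limma-voom.

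**Figure D4:**
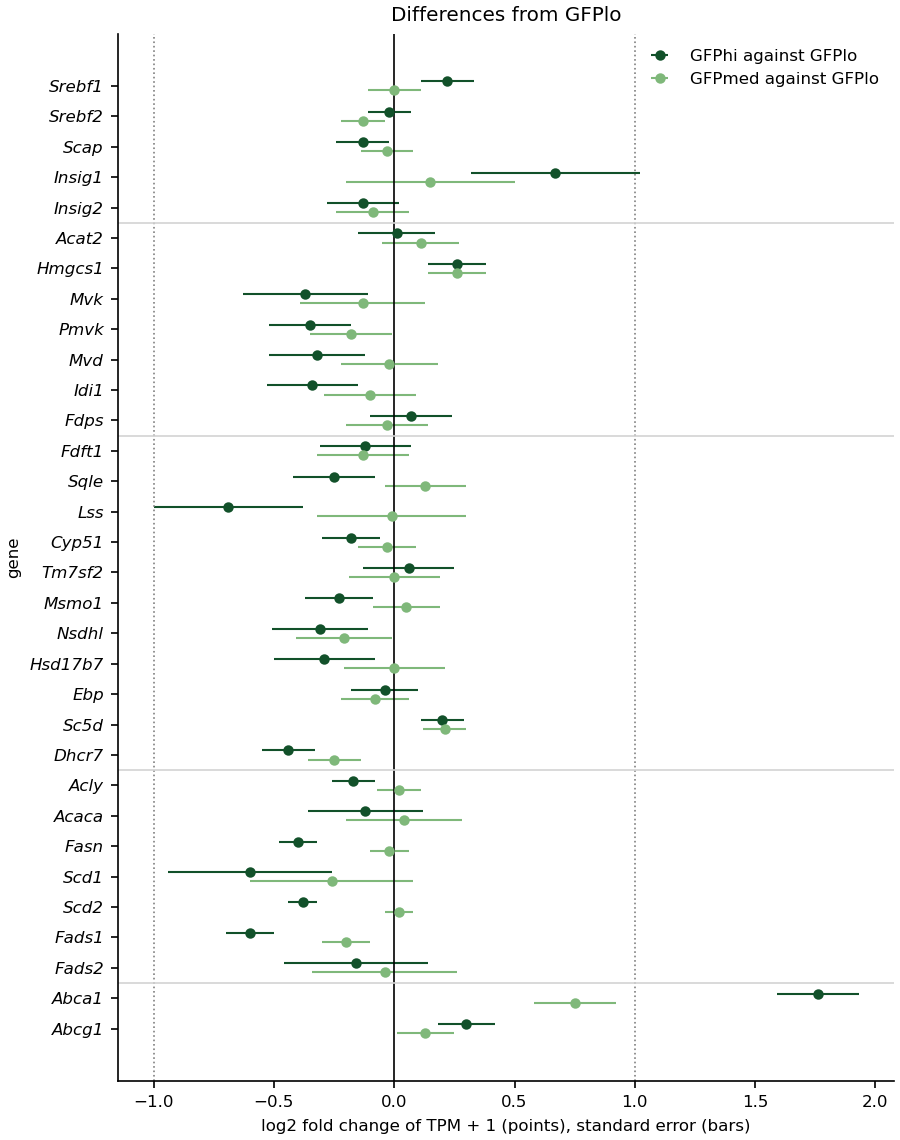
Log2 fold change of TPM + 1 of each tested lipid gene in GFPhi (dark) and GFPmed (light) against GFPlo, with standard errors from limma and dotted lines at the fold limit of 1, by role from regulators (top) to efflux (bottom). Abca1 lies beyond the limit at 1.76, all 7 fatty acid genes lie below 0 in GFPhi, and most GFPmed values lie near 0.

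Summed by role, fatty acid synthesis had 828 ± 20.6 TPM in GFPlo, 827 ± 60.8 in GFPmed and 639 ± 30.8 in GFPhi samples (SD, n = 3) on the TPM of the table. Scd2 (438 TPM in GFPlo) and Fasn (269 TPM) made up most of that sum, so it largely restates these genes. On exonic length the fatty acid genes summed to 928 ± 20, 932 ± 61.4 and 738.5 ± 28.2 TPM, and Scd2 and Acly were the highest members. The cholesterol steps summed to 276 ± 13.6, 271 ± 5.19 and 251 ± 27.1 TPM on the TPM of the table, whose GFPhi samples overlapped those of GFPlo. On exonic length they summed to 391.9 ± 19.4, 383.1 ± 6.89 and 351 ± 27.6 TPM, again with overlap of GFPhi and GFPlo. Efflux summed to 17.6 ± 0.705, 21.7 ± 0.605 and 30.6 ± 1.20 TPM on the TPM of the table, without overlap. On exonic length it summed to 51.9 ± 2.09, 65.5 ± 1.72 and 96.3 ± 0.667 TPM, also without overlap. Abca1 made up most of this rise. On the TPM of the table its means were 2.85 in GFPlo and 12.1 in GFPhi, beside 14.8 and 18.5 for Abcg1. Over the same samples the proliferation genes summed to 65.6 ± 9.70, 137 ± 27.0 and 283 ± 45.8 TPM. The largest part of that sum was Top2a, with a mean of 129 TPM in GFPhi. None of the 30 tested synthesis genes and regulators among the members passed as higher between GFPlo and GFPhi by limma. The summed proliferation genes went to 431% of the GFPlo mean there. Any link between the lipid genes and cell division was not tested.

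**Figure D5:**
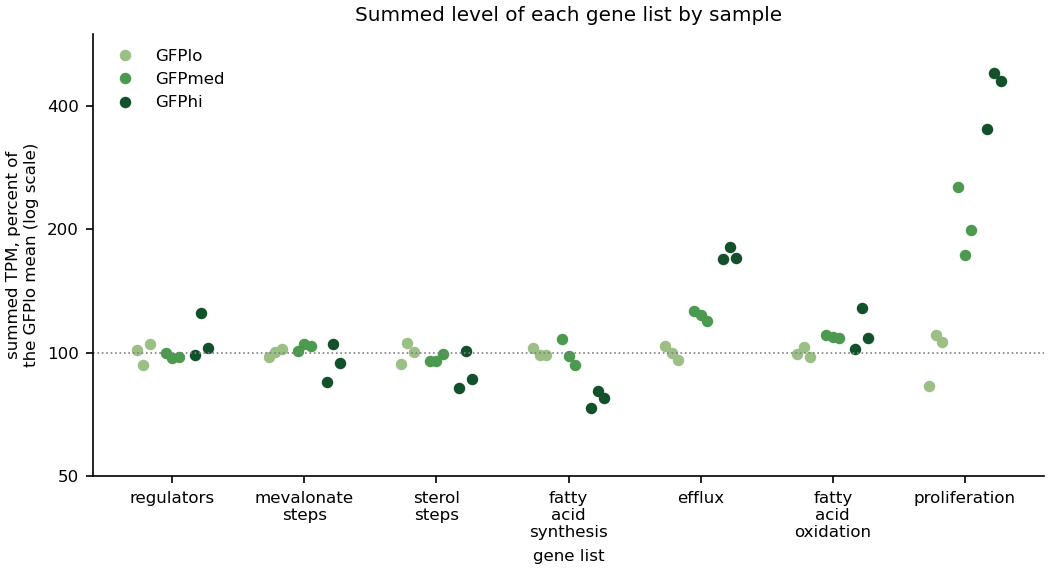
Summed TPM of each gene list in each sample (points), as percent of the mean of the 3 GFPlo samples, on a log axis. Fatty acid synthesis, mostly Scd2 and Fasn on the TPM of the table, lies at 77.2% on average in GFPhi (79.5% on exonic length). Efflux, whose rise is mostly Abca1, lies at 173.5% (186% on exonic length). In GFPhi the mevalonate steps lie at 94.6% on average and the sterol steps at 89.7% (samples at 82.0%, 100.7% and 86.2%), and both overlap GFPlo. Proliferation reaches 431%.

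Further lipid genes, outside the 33, moved both ways. Of 30 listed, 28 were tested, 16 with positive and 12 with negative log2 fold changes from GFPlo to GFPhi and a median of 0.02. None was called. By the adjusted p alone, 1 was higher and 2 lower, beside 2.38% and 1.51% of all genes. At an unadjusted p under 0.05, 5 were higher and 6 lower (39.3% in all), beside 13.8% of all genes. limma-voom on library totals passed 3 higher and 3 lower, against 0 with median-of-ratios size factors. Lbr, the lamin B receptor that is also a sterol reductase, rose, with 132, 133 and 141 TPM in GFPlo, 165.5, 151 and 156 in GFPmed and 179, 204 and 182 in GFPhi samples (log2 fold change 0.47, limma adjusted p = 0.0108). Ggps1, which makes geranylgeranyl diphosphate for protein prenylation, fell, with 78.3, 69.3 and 76.8 TPM in GFPlo, 77.9, 74.3 and 71.2 in GFPmed and 48.1, 56.2 and 55.2 in GFPhi samples (log2 fold change -0.49, limma adjusted p = 0.0214, and 0.0421 against GFPmed). Npc2, which moves cholesterol out of lysosomes, fell from 93.0 to 101 TPM in GFPlo to 78.2 to 79.3 in GFPhi (log2 fold change -0.30, limma adjusted p = 0.0341).

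Fatty acid oxidation genes, the opposing pathway, did not pass. Of 12 tested, 6 were positive and 6 negative, with a median of 0.07. At an unadjusted p under 0.05, 2 were higher (Cpt1a and Acadl) and 0 lower (16.7% in all), beside 13.8% of all genes. limma-voom passed Cpt1a and Acadl with either scaling. Cpt1a, which controls the entry of fatty acids into mitochondria, had 9.03, 7.64 and 8.53 TPM in GFPlo, 12.2, 8.69 and 12.1 in GFPmed and 13.7, 10.4 and 17.7 in GFPhi samples (log2 fold change 0.64, limma adjusted p = 0.208). Acadl, a long-chain acyl-CoA dehydrogenase, had 5.58, 5.02 and 4.58 TPM in GFPlo, 5.27, 4.70 and 4.43 in GFPmed and 7.57, 8.21 and 8.37 in GFPhi samples (log2 fold change 0.58, limma adjusted p = 0.116).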

How the data were processed

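RNA from 9 sorted thymocyte samples was amplified with SMART-seq v4 and made into NexteraXT libraries. After trimming, the authors aligned reads by STAR 2.7.11b to GRCm38 (mm10) with GENCODE genes, removed identical duplicates and counted reads per gene. The deposited table gives TPM per sample, and the authors' group means of DESeq2-normalized signal, which were used only to solve for reads. Deposited log2 fold changes, p-values and score columns of calls hold the authors' own comparisons and were not used. TPM times gene and sample factors gave whole reads (tolerance 0.05) for 41578 genes and not for 400, with 100% of values whole. PCR without molecular identifiers adds error beyond counting. The TPM length equalled the mean transcript span within 1% for 98.4% of 41439 genes in GENCODE M21 (GRCm38), which is older than the authors' release.

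limma 3.58.1 in R 4.3.3 tested log2(TPM + 1) in one model of 9 samples, with eBayes and a trend. The fit was tested on simulated data with large planted changes in well-read genes only. Changes as small as those of most members, and genes with few reads, were not covered by it. Groups and replicate numbers came from sample titles. Alternatives were quantile normalization, median-of-ratios scaling, a filter at 5 TPM or none, a pseudocount of 0.1, no fold limit, no trend, a fit of 2 groups alone, the replicate block, leaving out each sample, and limma-voom on the reads with library totals or median-of-ratios size factors. TPM on exonic length was chosen as a tested alternative after seeing the data. Members and lists were chosen with earlier results of these data known. Values were named in full for members past the adjusted p in any comparison and for the largest rise and fall of each role. Promoters are from RefSeq.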

Additional observations from a re-analysis of the deposited data

How the results depend on the processing

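Counts and medians of members and the log2 fold changes of the tested members were recomputed under 20 alternatives beside the removal of the fold limit. Of the 32 members, 26 could be tested in all 20, and Scd1 in 14. The call of Abca1 between GFPhi and GFPlo held in all of them, and 0 members were called lower in any comparison except with no fold limit, which gave 3 lower in GFPhi than GFPlo and 1 lower in GFPhi than GFPmed. The members lower at the adjusted p alone between GFPhi and GFPlo were 3 in the reported fit, 0 under median-of-ratios scaling, 1 with only the 2 groups, 1 without the eBayes trend, 4 by limma-voom with library totals (Dhcr7 beside the 3), 0 by limma-voom with median-of-ratios size factors, and 0 to 3 with 1 sample left out. Between GFPhi and GFPmed, the 1 member called higher (Abca1) was also the 1 higher at the adjusted p alone, and both counts went to 0 under quantile normalization, median-of-ratios scaling, only the 2 groups and the replicate block, and to 0 or 1 with 1 sample left out. There the 1 lower member (Scd2) went to 0 under median-of-ratios scaling, only the 2 groups, no trend, the replicate block and limma-voom with median-of-ratios size factors, to 2 by limma-voom with library totals, and to 0 or 1 with 1 sample left out. limma-voom with library totals gave 2 members higher in GFPhi than GFPlo (Abca1 and Abcg1), 1 higher in GFPmed than GFPlo (1 also with median-of-ratios size factors) and 1 off the midpoint (Scd2). The cause of these changes was not tested.

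The median log2 fold change of members between GFPhi and GFPlo was -0.17 as reported, -0.09 under median-of-ratios scaling, -0.11 under quantile normalization and -0.11 by limma-voom with median-of-ratios size factors. Between GFPhi and GFPmed it was -0.14 as reported, -0.09 under median-of-ratios scaling, -0.08 under quantile normalization and -0.15 to -0.09 with 1 sample left out. The sign turned in 1 or more alternatives for 7 of 32 members between GFPhi and GFPlo, with reported values of at most 0.16 in size, for 16 between GFPmed and GFPlo (at most 0.26, Scd1) and for 8 between GFPhi and GFPmed (at most 0.12). Between GFPmed and GFPlo, Fasn and Lss were each 0.01 under median-of-ratios scaling and under limma-voom with those size factors, and under quantile normalization Scd2 was -0.02 and Lss 0.01. Between GFPhi and GFPmed, Hmgcs1 and Sc5d were 0.05 under median-of-ratios scaling and limma-voom with those size factors, 0.01 and 0.00 under quantile normalization, and 0.03 and 0.02 by limma-voom with library totals. With 1 sample left out, the values between GFPmed and GFPlo ran over -0.08 to 0.03 for Fasn, -0.04 to 0.06 for Scd2, -0.44 to 0.08 for Scd1, -0.27 to 0.00 for Mvk, -0.13 to 0.52 for Insig1, -0.06 to 0.03 for Scap and -0.18 to 0.16 for Lss. Those between GFPhi and GFPmed ran over -0.05 to 0.03 for Hmgcs1 and -0.07 to 0.03 for Sc5d.

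Same-numbered samples of different groups deviated together at a mean correlation of 0.0608 over 9 pairs (0.012 to 0.225), of which 1 was over 0.1. Pairs of different number had a mean of -0.0304 over 18 pairs (-0.185 to 0.148), of which 1 was over 0.1. The labels do not say whether a number marks the same mouse. Pairing was therefore not assumed in the reported fit, and these values do not exclude it. With the replicate block, Abca1 stayed called between GFPhi and GFPlo (1 member), and Scd2 and Fads1 still passed the adjusted p there. Fasn no longer passed it, and Abca1 was not called between GFPhi and GFPmed. Depth limits the members with few reads: Scd1 had 0 reads in 1 sample.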
